A study of Mus musculus with 16 samples.

Results

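Complement and coagulation are cascades of plasma proteins, most of them made by hepatocytes, and 38 genes of these cascades were followed in mouse liver. The 38 were taken from a list of hepatic complement components, clotting factors and inhibitors by pathway membership, not by a cut on measured values, although earlier results of these data were known when the list was drawn up. All 38 were present among the 51912 gene identifiers of the count table and among the 14920 genes with enough counts to test. RNA sequencing was done on livers of 16 male mice. Mice were placed on a control amino acid diet or on a low isoleucine diet at 10 weeks of age, were housed at about 22 °C and were killed at 13 weeks of age, after 3 weeks on the diet. On each diet 4 livers were taken after an overnight fast of 16 h and 4 after refeeding, which gives 4 groups of 4 libraries: control fasted, low isoleucine fasted, control refed and low isoleucine refed. No group carried a genetic change according to the labels, and the sources used here do not give the strain, the isoleucine content of the diets or the length of refeeding. The labels give each group a number of its own (1, 2, 7 and 9), and whatever that number stands for cannot be told apart from the group. The labels name separate livers but say no more of how the animals were housed or batched. The p-values set differences between groups against the spread between livers within groups. A housing or batch difference between whole groups would not be part of that spread.

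The complement cascade starts from recognition proteins that bind microbes or immune complexes, runs through serine proteases that cleave C4, C2 and C3, and ends in the membrane attack complex. In that complex C5b binds C6 and C7, the C8 heterotrimer joins, and several copies of C9 form a pore. Coagulation runs through serine proteases that meet at factor X and prothrombin, thrombin cleaves fibrinogen to fibrin, and plasmin later dissolves the clot. Hepatocytes secrete nearly all of these proteins, and several of them, fibrinogen and C3 among them, belong to the acute phase proteins that inflammation raises.

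The terminal complement genes C6, C9, C8a and C8b were lower on the low isoleucine diet when the diet effect was averaged over both feeding states, and so were the classical and lectin pathway protease gene C2 and the protease inhibitor gene Serping1. Of these calls, those of C6, C9, C8a and C2 held under all 25 alternative ways of fitting the data, that of C8b under 14 and that of Serping1 under 8. By edgeR, none of the 38 genes was called higher on the low isoleucine diet, and no clotting factor, fibrinogen chain or anticoagulant passed in any diet comparison. By DESeq2, C3, Fga and Fgb were called higher in the averaged comparison and F11 lower in fasted mice. The regions just before the starts of C6, C9, C8a and C8b are shown because these are the membrane attack complex genes that were called. They are RefSeq sequences on build GRCm38.p6, read 5′ to 3′ on the strand of the gene, and each ends at the base before the start: chr15:4726960-4727174 (plus strand) for C6, chr15:6445096-6445326 (plus strand) for C9, chr4:104876399-104876648 (minus strand) for C8a and chr4:104766067-104766316 (plus strand) for C8b. Capitals mark matches to the searched motifs.

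C6: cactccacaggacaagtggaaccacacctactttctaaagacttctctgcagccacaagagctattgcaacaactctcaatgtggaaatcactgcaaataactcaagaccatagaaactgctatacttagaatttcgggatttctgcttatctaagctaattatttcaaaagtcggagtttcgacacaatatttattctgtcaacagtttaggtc
C9: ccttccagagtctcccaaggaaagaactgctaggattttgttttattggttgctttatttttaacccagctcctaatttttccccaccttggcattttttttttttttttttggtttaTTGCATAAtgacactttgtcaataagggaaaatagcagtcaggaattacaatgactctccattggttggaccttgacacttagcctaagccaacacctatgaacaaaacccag
C8a: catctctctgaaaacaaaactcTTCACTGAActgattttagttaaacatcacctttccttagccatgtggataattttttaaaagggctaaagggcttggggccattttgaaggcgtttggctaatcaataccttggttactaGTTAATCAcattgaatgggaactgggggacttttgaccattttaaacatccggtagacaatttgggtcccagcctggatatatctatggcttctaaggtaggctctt
C8b: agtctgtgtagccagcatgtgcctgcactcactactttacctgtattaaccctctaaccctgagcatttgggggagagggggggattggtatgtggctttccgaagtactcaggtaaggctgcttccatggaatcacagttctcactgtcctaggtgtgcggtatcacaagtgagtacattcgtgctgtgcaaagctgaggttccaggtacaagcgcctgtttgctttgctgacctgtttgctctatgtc

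In C8a the first capitals (TTCACTGAA) match TTCNNNGAA, the letters bound by STAT factors, and the second (GTTAATCA) match GTTAATNA, letters found in HNF1 sites. In C9 the capitals (TTGCATAA) match TTGCNNAA, letters found in C/EBP sites. C6 and C8b held no match to these or to CAAAGTCCA (HNF4-like) or to TATAAA, the letters of the TATA box. The motifs were searched on both strands, and the matches shown do not overlap. The stretches shown are 250 bases for C8a and C8b, 231 for C9 and 215 for C6, because for C9 and C6 the GENCODE start lies upstream of the RefSeq start and the stretch ends before the earlier of them. The counts over promoters use the 250 bases before each RefSeq start, where C6 and C8b held no match either. Of 32851 mouse promoters in the RefSeq table, 7.02% held TTCNNNGAA, 9.56% TTGCNNAA, 2.33% GTTAATNA, 0.384% CAAAGTCCA and 12.4% the TATA box. Of the 38 genes, 29 were matched to a promoter, and of these 6 held TTCNNNGAA, 7 TTGCNNAA, 6 GTTAATNA, 0 CAAAGTCCA and 3 the TATA box. A gene was counted if any of its promoters held the letters, while the percentages are per promoter, so the gene counts and the percentages are unlike measures. The 4 lowered terminal genes thus shared no searched motif, and a match is letters in a window, not a binding site.

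In GENCODE M21, C6 and C9 lie on the same strand of chromosome 15 (4727175 to 4814967 and 6445327 to 6498751), and C8b and C8a are neighbours on chromosome 4 that run towards each other (104766317 to 104804548 and 104815679 to 104876398). All 38 genes are annotated there as protein coding. The sources used here name no build or annotation for the deposited counts, so these positions hold for the GENCODE annotation.

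Library totals ran from 24368656 to 34002955 counts, and the 38 genes together took 2.97% to 3.67% of the counts of a library. The tissue label was checked against 7 hepatocyte markers, whose mean log2 CPM (CPM is the count scaled to library size) was 12.19 in control fasted, 12.30 in low isoleucine fasted, 12.26 in low isoleucine refed and 12.06 in control refed livers. Of the 6 genes listed as feeding checks, all passed in the known direction on the control diet (4 higher and 2 lower after refeeding) and 4 passed on the low isoleucine diet (3 higher and 1 lower). Control refed library 4 stood apart: its scaling factor was 1.21, the mean log2 CPM of 9 Kupffer cell and macrophage markers was 5.05 against 3.79 to 4.29 in the other 3 libraries of its group, and it held the lowest level of its group for 21 of the 38 genes. For the complement and coagulation genes called by edgeR, results that rest on control refed mice are therefore given with and without it. Those of the feeding check genes and of the cell type markers Cd4 and Alas2 are given with it only. Below, a gene passed if its adjusted p was under 0.05 by edgeR with all 16 libraries, unless another tool or a left-out library is named. By diet, the mean log2 CPM of these Kupffer cell and macrophage markers was 4.35 to 4.83 in control fasted and 3.70 to 4.32 in low isoleucine fasted livers. In refed livers it was 3.79 to 5.05 on control and 3.49 to 4.55 on low isoleucine, which overlapped. None of the 9 passed by diet in fasted or in refed mice, and 1 passed averaged over feeding states. In a bulk liver sample fewer cells of a type and less RNA per cell cannot be told apart.

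Compared per kilobase of merged exon, the most abundant of the 38 was C3, the central component on which all complement routes converge, at 1547 CPM per kilobase over the 16 libraries. The fibrinogen chains Fgg (938), Fga (917) and Fgb (751) and the complement and adhesion regulator Vtn (654) followed. Within the other arms the highest levels per kilobase were those of Kng1 (545), which encodes the kininogen of the contact system, Plg (513), the plasmin precursor, F2 (239), which encodes prothrombin, Serpind1 (234), which encodes the thrombin inhibitor heparin cofactor II, Mbl2 (186), a mannose-binding lectin, and C8g (127). Masp1 (5.65) and Cfp (6.09), which encodes properdin, were lowest. This order depends on the merged exon length, which counts every annotated exon of a gene. In CPM alone, Serpinc1 (8546 merged bases) was at 1562 and Serpind1 (2191 bases) at 514. C4b was at 1002 CPM and Mbl2 at 202, and Hc was at 650 and C8g at 189. Masp1 (9833 bases) was at 55.6 CPM, above F7 (51.9), F11 (47.6) and Cfp (10.6). Among the membrane attack complex genes C8g, C8a, Hc, C9 and C8b lay between 100.2 and 127 CPM per kilobase, and C6 was lower at 44.9.

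**Figure D1:**
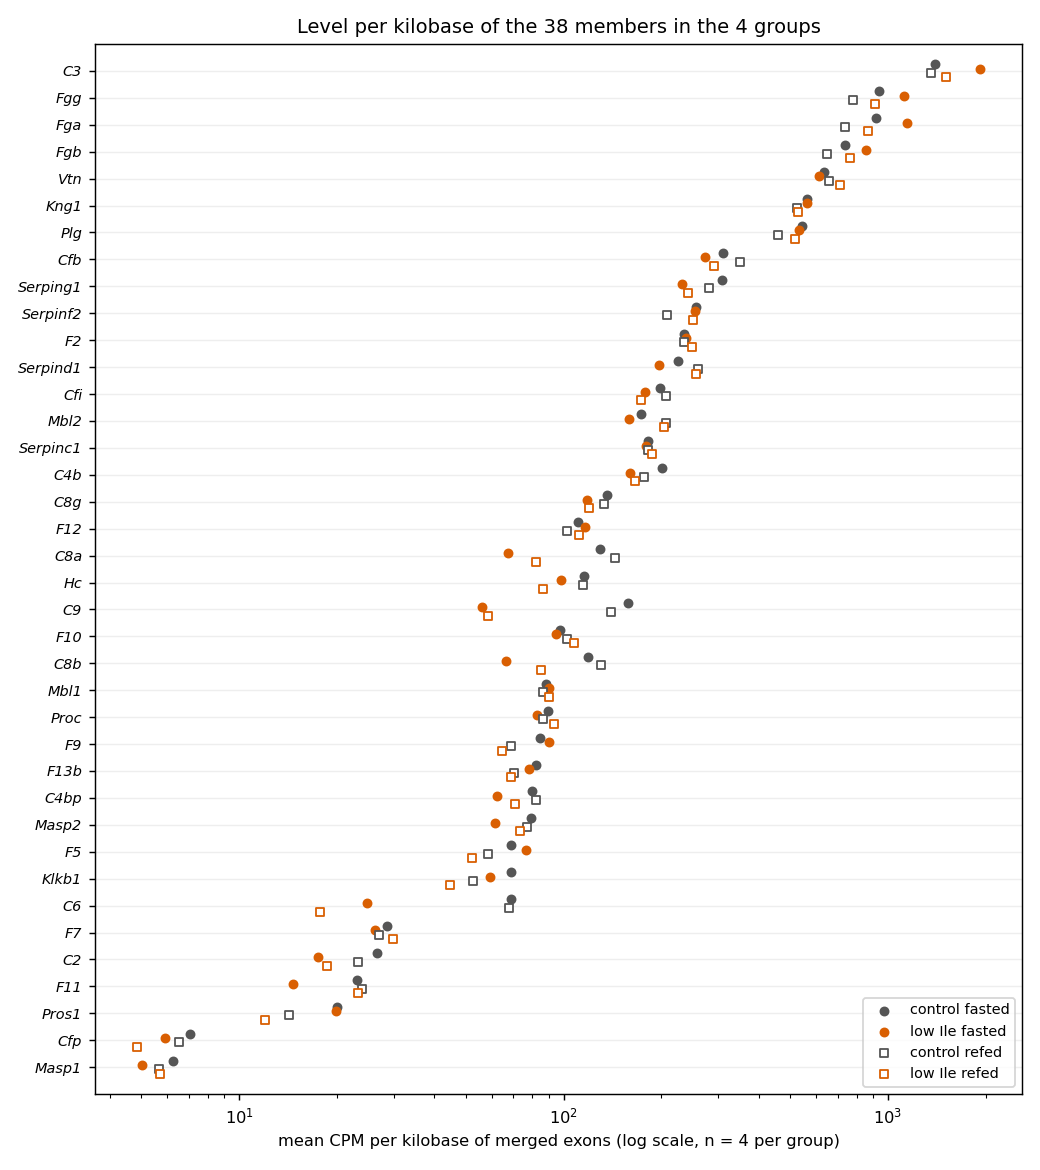
Mean level of each of the 38 genes in each of the 4 groups (n = 4 libraries per group), in TMM-normalised CPM per kilobase of merged exon on a log axis. Genes are ordered by their mean over the 16 libraries. C3 and the fibrinogen chains lie highest, and Masp1 and Cfp lowest.

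With fasted mice, 4 of the 38 genes (10.5%) passed an adjusted p of 0.05 by the edgeR quasi-likelihood test, all lower on low isoleucine: C9, C6, C8a and C2. Among all 14920 genes 0.771% passed, and among the 6975 genes with a mean of at least 10 CPM 1.1% passed. The libraries of the diets did not overlap for 10 of the 38 (26.3%, against 8.07% of all genes), 8 of them lower and 2 higher on low isoleucine. In refed mice 1 of the 38 (2.63%) passed, C6, which was lower on low isoleucine, against 0.174% of all genes and 0.172% of those with at least 10 CPM. There 3 of the 38 (7.89%, against 4.44% of all genes) did not overlap, namely C6, C9 and Cfi, each lower on low isoleucine. Averaged over feeding states, 6 of the 38 (15.8%) passed, against 1.51% of all genes and 1.99% of those with at least 10 CPM. For C6 and C9 (5.26% of the 38, against 0.208% of all genes) all 8 low isoleucine libraries lay below all 8 control libraries. Without control refed library 4, 5 of the 38 passed in fasted mice, 2 in refed mice and 8 averaged. No fasted call was left without control fasted library 3 or 4 or low isoleucine fasted library 2, 3 or 4, and the refed call was lost without low isoleucine refed library 1, 2 or 4.

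**Figure D2:**
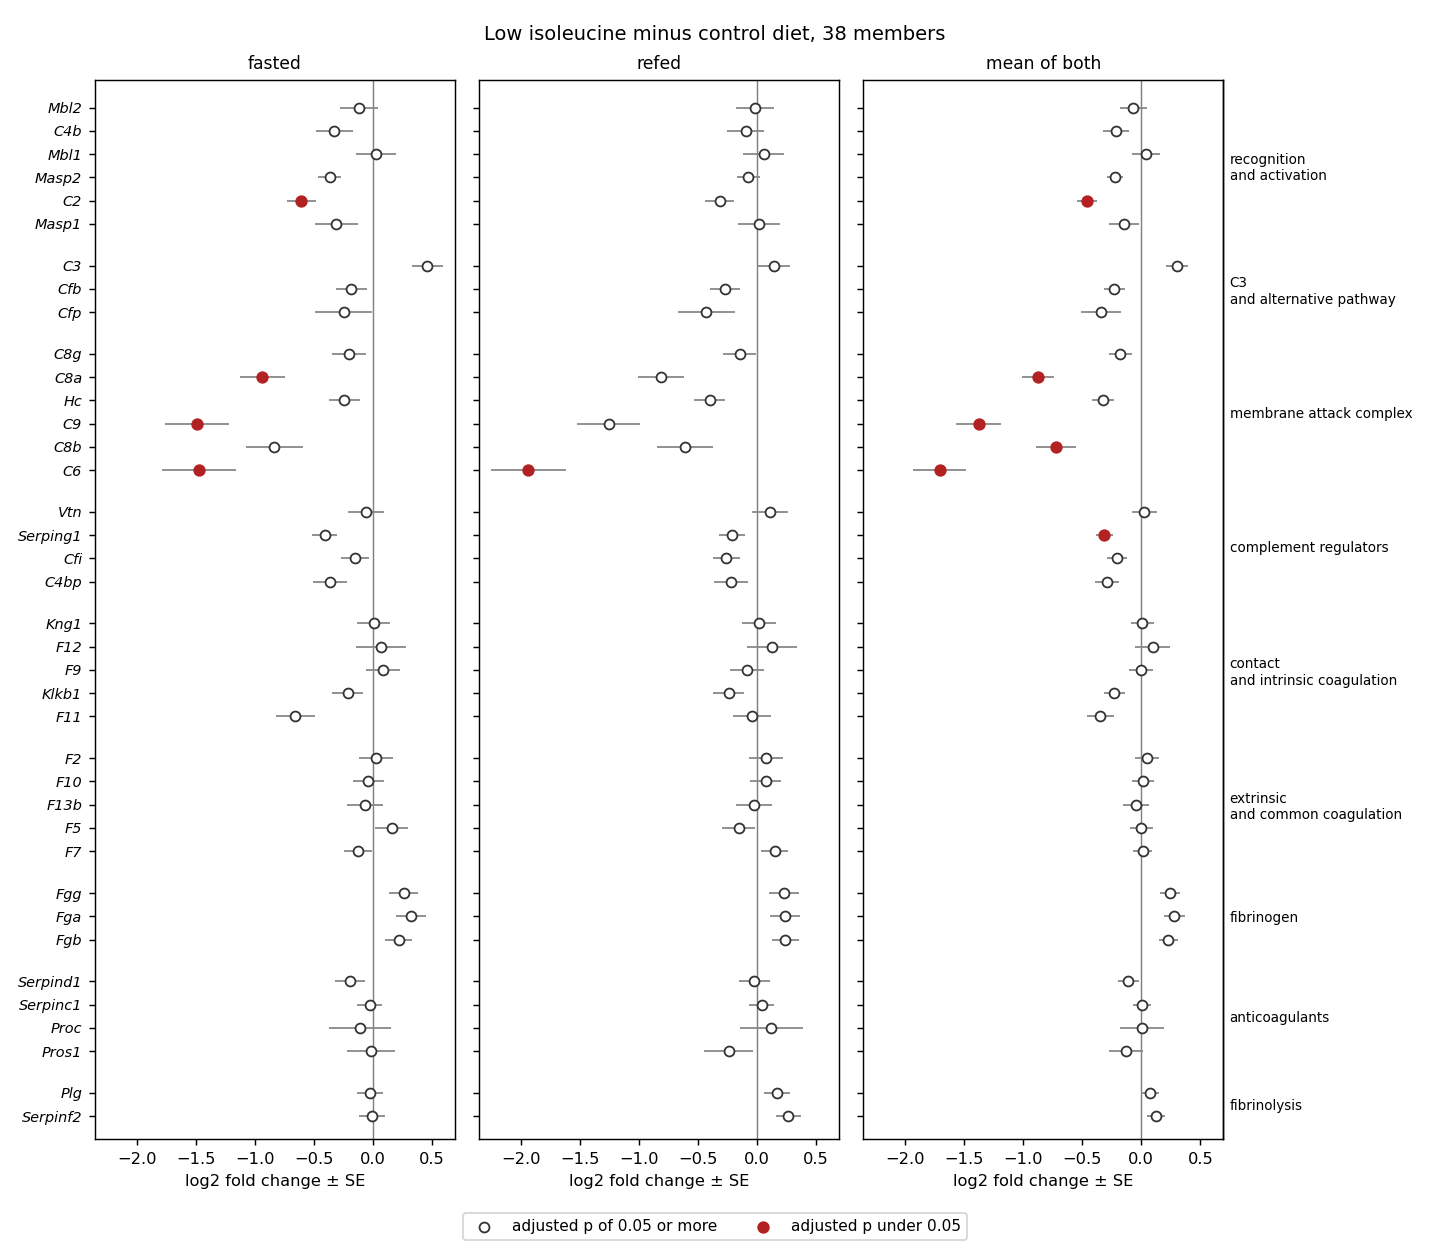
Log2 fold change of each of the 38 genes, low isoleucine minus control, with its standard error, in fasted mice, in refed mice and averaged over feeding states, grouped by arm. Filled points passed an adjusted p of 0.05 and sit at negative values, most of them in the membrane attack complex.

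Of the 6 membrane attack complex genes, 4 passed in the averaged comparison (C6, C9, C8a and C8b), 3 in fasted mice (C6, C9 and C8a) and 1 in refed mice (C6), all lower. All 6 fold changes were negative in each comparison. Their median log2 fold change was -0.89 in fasted mice, -0.71 in refed mice and -0.80 averaged, where the medians over all genes were 0.01, -0.01 and -0.00.

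C6 encodes the component that binds C5b and starts assembly of the complex. Its levels were 167, 196, 327 and 289 CPM in the control fasted livers and 90.4, 121, 67.8 and 72.9 CPM in the low isoleucine fasted livers. In the refed livers they were 208, 147, 444 and 169.9 CPM on the control diet and 56.0, 62.6, 73.6 and 60.8 CPM on low isoleucine. Every low isoleucine liver lay below every control liver, and the control livers were more spread, with a highest value of 444 CPM in control refed library 3. The log2 fold change was -1.48 in fasted mice (SE 0.313, adjusted p = 0.0426 by edgeR), or 2.78-fold lower. It was -1.94 in refed mice (SE 0.318, adjusted p = 0.0222 by edgeR), or 3.83-fold lower, and -2.09 without control refed library 4 (adjusted p = 0.012). Averaged over feeding states it was -1.71 (SE 0.223, adjusted p = 0.00182 by edgeR), and -1.79 without that library (adjusted p = 0.000863).

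C9 encodes the protein that polymerises into the pore. Levels were 369.8, 316, 451 and 474 CPM in control fasted and 157, 179.8, 126 and 109.5 CPM in low isoleucine fasted livers. They were 345, 257, 499 and 331 CPM in control refed and 110.3, 142, 246 and 99.5 CPM in low isoleucine refed livers. Again all 8 control livers lay above all 8 low isoleucine livers, though low isoleucine refed library 3 (246 CPM) came close to control refed library 2 (257 CPM). The log2 fold change was -1.49 in fasted mice (SE 0.27, adjusted p = 0.0224 by edgeR), or 2.82-fold lower. In refed mice it was -1.26 (SE 0.268, adjusted p = 0.0768 by edgeR), which did not pass, with or without control refed library 4 (adjusted p = 0.064), though it passed by DESeq2 (adjusted p = 0.00106). The average of both was -1.38 (SE 0.19, adjusted p = 0.00182 by edgeR), and -1.40 without that library (adjusted p = 0.00196).

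C8a and C8b encode the alpha and beta chains of C8, which carry the same pore-forming type of domain as C9. C8a was at 449, 412, 524 and 492 CPM in control fasted and 294, 274, 214 and 200.5 CPM in low isoleucine fasted livers. Refed livers held 561, 502, 684 and 354 CPM on the control diet and 239.8, 265, 396 and 294 CPM on low isoleucine. The diets did not overlap in fasted livers, and in refed livers control library 4 (354 CPM) lay below low isoleucine library 3 (396 CPM). The log2 fold change of C8a was -0.94 in fasted mice (SE 0.194, adjusted p = 0.0332 by edgeR) and -0.81 in refed mice (SE 0.193, adjusted p = 0.117 by edgeR). Without control refed library 4 the refed value was -0.98 and passed (adjusted p = 0.0207), and with all libraries it passed by DESeq2 (adjusted p = 0.00972). Averaged over feeding states C8a was 1.83-fold lower (log2 fold change -0.88, SE 0.137, adjusted p = 0.00431 by edgeR), at -0.96 without that library (adjusted p = 0.000774).

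C8b was at 225, 224, 399.9 and 361 CPM in control fasted and 183, 178, 151 and 166 CPM in low isoleucine fasted livers. In refed livers it was at 245, 260.2, 530.4 and 289 CPM on the control diet and 186, 198, 278 and 204 CPM on low isoleucine. The fasted livers did not overlap between diets, and among refed livers only low isoleucine library 3 reached into the control range. C8b fell as the average over feeding states (log2 fold change -0.72, SE 0.17, adjusted p = 0.0422 by edgeR, and -0.76 with 0.0299 without control refed library 4). In fasted mice the adjusted p was 0.141 by edgeR and 0.0346 by DESeq2. In refed mice it was 0.422 by edgeR, 0.312 by DESeq2 and 0.297 by edgeR without control refed library 4. The averaged call held under 14 of 25 alternatives, with an adjusted p of up to 0.0975 among the others.

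The remaining pair, C8g and Hc, did not pass by edgeR. C8g, the lipocalin chain of C8, was at 202.9 ± 13.0 CPM (SD, n = 4) in control fasted and 176 ± 18.6 CPM in low isoleucine fasted livers, with an averaged log2 fold change of -0.18 (SE 0.1, adjusted p = 0.459 by edgeR). Hc, which encodes C5, was at 728, 748, 761 and 666 CPM in control fasted, 699.8, 638, 569 and 546 CPM in low isoleucine fasted, 671, 678, 866 and 655 CPM in control refed and 541, 531, 659.8 and 440.1 CPM in low isoleucine refed livers. The diets overlapped for Hc in each feeding state, and its averaged log2 fold change was -0.32 (SE 0.0938, adjusted p = 0.0986 by edgeR, 0.0222 by DESeq2). C7, which completes the complex and is not among the 38, was tested at 1.77 ± 0.608 CPM in control fasted livers and had an averaged log2 fold change of 0.05 (SE 0.476, adjusted p = 0.982 by edgeR).

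**Figure D3:**
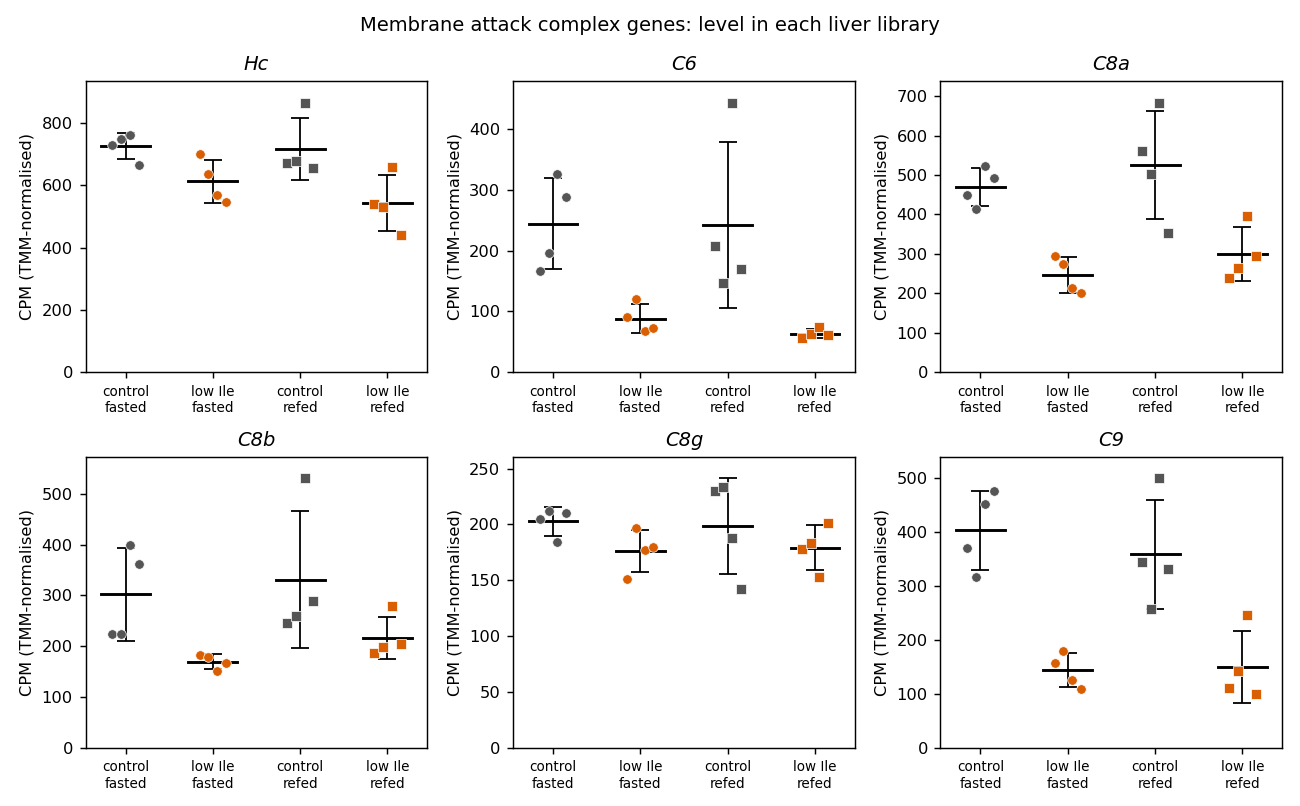
TMM-normalised CPM of the 6 membrane attack complex genes in each of the 16 livers, by diet and feeding state, with group mean and SD. For C6 and C9 every low isoleucine liver lies below every control liver, while the groups overlap for C8g and Hc.

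Control refed library 3 held the highest level of its group for Hc, C6, C8a, C8b and C9. Low isoleucine refed library 3 was the highest of its group for the same 5 genes. Beside the lower terminal genes, the median log2 fold change of the 9 Kupffer cell and macrophage markers was -0.60 in fasted mice, -0.51 in refed mice and -0.54 averaged, where 8 of 9 were negative and 1 of 9 passed, Clec4f (adjusted p = 0.0461 by edgeR, 0.0502 without control refed library 4). The 8 lymphocyte markers tested had medians of -0.41, -0.84 and -0.54, and 1 of them, Cd4, fell in fasted mice (log2 fold change -1.76, adjusted p = 0.0287 by edgeR) and averaged (-1.44, adjusted p = 0.00656). Their mean log2 CPM was low, from -1.69 to 0.44 over the 16 livers. Of 6 erythroid and platelet markers, Hbb-bs rose in fasted mice (1.00, adjusted p = 0.0275 by edgeR) and Alas2 fell in the average (-1.10, adjusted p = 0.00788 by edgeR), with list medians of 0.59, -0.01 and 0.24. The 7 hepatocyte markers had medians of 0.15, 0.19 and 0.18. The part of these cell types in the complement differences was not tested.

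Among the 6 genes of recognition and of the classical and lectin routes, C2 passed by edgeR and the others did not. C2 encodes the protease that, once cleaved, forms the classical and lectin C3 convertase with C4b. Its levels were 85.7, 98.1, 113 and 116 CPM in control fasted and 81.1, 61.9, 60.3 and 67.9 CPM in low isoleucine fasted livers. They were 88.6, 91.7, 99.6 and 79.1 CPM in control refed and 64.4, 74.7, 79.4 and 69.8 CPM in low isoleucine refed livers. The fasted diets did not overlap, and in refed livers they overlapped by a narrow margin, at 79.1 and 79.4 CPM. The log2 fold change was -0.61 in fasted mice (SE 0.122, adjusted p = 0.0308 by edgeR), -0.32 in refed mice (SE 0.122, adjusted p = 0.412 by edgeR) and -0.46 averaged (SE 0.0864, adjusted p = 0.0114 by edgeR). Without control refed library 4 the refed value of C2 was -0.39 (adjusted p = 0.197) and the averaged value -0.50 (adjusted p = 0.00435).

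Cfb, the neighbour of C2 on chromosome 17 and its counterpart in the alternative pathway, had an averaged log2 fold change of -0.23 and did not pass (adjusted p = 0.251 by edgeR), but passed without control refed library 4 at -0.30 (adjusted p = 0.0347). Masp2, a protease of the lectin route, did not overlap between the fasted diets, with 239.6 to 282 CPM on control and 192 to 227 CPM on low isoleucine, and its adjusted p in fasted mice was 0.0981 by edgeR, 0.0449 by edgeR without control refed library 4 and 0.00432 by DESeq2. Its averaged value was -0.22 with an adjusted p of 0.118 by edgeR and 0.0171 by DESeq2. It passed by edgeR at -0.26 when control refed library 4 was left out (adjusted p = 0.0379). Mbl1, Mbl2, Masp1 and C4b lay between -0.33 and 0.02 in fasted mice and between -0.10 and 0.05 in refed mice, and none passed.

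C3 was at 8115, 6669, 6740.0 and 7238 CPM in control fasted and 8166, 11012, 10185 and 10219.7 CPM in low isoleucine fasted livers. The fasted diets did not overlap, with low isoleucine higher, while the refed diets did, at 6358 to 7497 CPM on control and 6103 to 8785 CPM on low isoleucine. The log2 fold change of C3 was 0.46 in fasted mice (SE 0.134, adjusted p = 0.143 by edgeR) and 0.30 averaged (SE 0.0946, adjusted p = 0.125 by edgeR), and neither passed. By DESeq2 both passed (adjusted p = 0.0171 and 0.0315). Cfp, at 10.6 CPM over all libraries, did not pass in any diet comparison.

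Among the 4 complement regulators, Serping1 passed in the averaged comparison and Cfi, C4bp and Vtn did not. Serping1 encodes C1 inhibitor, which blocks the C1 and MASP proteases and also plasma kallikrein and factor XII. It was at 714, 699, 754 and 693 CPM in control fasted and 555, 542, 499 and 556 CPM in low isoleucine fasted livers. In refed livers it was at 732, 682, 595 and 593 CPM on control and 491, 641, 585 and 529 CPM on low isoleucine. The fasted livers were apart and the refed livers overlapped. The averaged log2 fold change was -0.31 (SE 0.0757, adjusted p = 0.0487 by edgeR), and this call held under 8 of 25 alternatives, with an adjusted p of up to 0.113 among the others. It was -0.34 when control refed library 4 was left out (adjusted p = 0.0179). The fasted value was -0.41 (adjusted p = 0.0979 by edgeR, 0.00336 by DESeq2). The refed value was -0.21 (adjusted p = 0.547 by edgeR), and -0.27 without control refed library 4 (adjusted p = 0.343).

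The 19 genes of coagulation, its inhibitors and fibrinolysis gave no call by diet with edgeR or limma-voom. By edgeR 2 of them had an unadjusted p under 0.05 in fasted mice, 1 in refed mice and 5 averaged. Of all 14920 genes, 1613, 1456 and 2139 did so. The 3 fibrinogen chains, which lie side by side on chromosome 3, had positive fold changes in each diet comparison, with medians of 0.26 in fasted mice, 0.23 in refed mice and 0.24 averaged. Fga was at 2620.2, 2667, 3099.9 and 2638 CPM in control fasted and 3351, 3791, 3221 and 3446 CPM in low isoleucine fasted livers. These groups did not overlap, yet the log2 fold change of 0.32 (SE 0.127, adjusted p = 0.321 by edgeR) did not pass. In refed livers Fga was at 2066 to 2371 CPM on control and 2045 to 3177 CPM on low isoleucine, which overlapped. By DESeq2, Fga and Fgb passed in the averaged comparison (adjusted p = 0.0341 and 0.0497).

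F11, the factor XI gene, was at 45.6, 60.3, 56.6 and 44.9 CPM in control fasted and 41.8, 28.9, 26.0 and 34.9 CPM in low isoleucine fasted livers, without overlap. Refed livers held 46.7, 54.6, 65.1 and 48.2 CPM on control and 44.1, 64.3, 50.2 and 50.2 CPM on low isoleucine, which overlapped widely. The log2 fold change of F11 by diet was -0.66 in fasted mice (SE 0.162, adjusted p = 0.0795 by edgeR, 0.0104 by DESeq2) and -0.04 in refed mice (adjusted p = 0.963 by edgeR). The other contact, intrinsic, extrinsic and common pathway genes lay between -0.21 and 0.16 in fasted mice and between -0.24 and 0.15 in refed mice. The anticoagulant genes Proc, Pros1, Serpinc1 and Serpind1 lay between -0.19 and -0.02 in fasted mice and between -0.24 and 0.12 in refed mice. Plg and Serpinf2, which encode plasminogen and its product's inhibitor, lay at -0.03 and -0.01 in fasted mice and at 0.17 and 0.26 in refed mice.

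The difference between the diet effects in refed and fasted mice was tested as an interaction, and none of the 38 passed by edgeR, where 0 of all 14920 genes (0%) passed. By edgeR 928 of all genes had an unadjusted p under 0.05. Of the 38, F11 (log2 0.62, SE 0.228, adjusted p = 0.701 by edgeR) and Masp2 (log2 0.29, SE 0.136, adjusted p = 0.797 by edgeR) were among these. DESeq2 called 35 of all genes and limma-voom 0, and neither called any of the 38. For C6 the interaction was -0.46 (SE 0.435) and for C9 0.24 (SE 0.374), so the calls of C9, C8a and C2 in fasted mice only were not shown to differ from the refed values.

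The authors' deposited table for fasted mice gave C6 a log2 fold change of -1.48 (adjusted p 0.0144), C9 -1.50 (0.00887), C8a -0.94 (0.0144) and C2 -0.61 (0.0682). The authors' deposited table for refed mice gave C6 -1.94 (0.00195), C9 -1.26 (0.025) and C8a -0.82 (0.0475). C6, C9 and C8a were the 3 genes of the 38 with an adjusted p under 0.05 in each of the authors' deposited tables, which come from the same libraries. Of all 14211 genes in each, 91 had an adjusted p under 0.05 in fasted mice and 39 in refed mice.

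Refeeding on the control diet called none of the 38 by edgeR, where 17.1% of all genes passed. An unadjusted p under 0.05 by edgeR was reached by 7 of the 38, all lower after refeeding, and by 4381 of all 14920 genes, 2118 of them lower. Of the 38, DESeq2 called 2 and limma-voom 1. The fasted and refed control livers did not overlap for 4 of the 38 (10.5%, against 19.1% of all genes): Klkb1, Fga, Plg and Serpinf2, each lower after refeeding. Without control refed library 4, Mbl2 rose (log2 fold change 0.43, adjusted p = 0.0131 by edgeR) and Pros1 fell (-0.76, adjusted p = 0.00718 by edgeR). With that library included they were at 0.26 and -0.50 and did not pass.

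Refeeding on the low isoleucine diet called 7 of the 38 (18.4%) by edgeR, 2 higher and 5 lower, where 21.4% of all genes passed. The fasted and refed groups did not overlap for 7 of the 38 (18.4%, against 24.6% of all genes). These shares are no larger than the background, and the count fell to 2 without low isoleucine refed library 1 and to 3 without library 4. None of the 6 membrane attack complex genes passed in either refeeding comparison.

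F11 had the largest rise, from the fasted levels given above, 1.59-fold (log2 fold change 0.67, SE 0.162, adjusted p = 0.00742 by edgeR). Its neighbour on chromosome 8, Klkb1, encodes plasma kallikrein, lies on the same strand and fell. Klkb1 was at 369, 302, 261 and 313 CPM in fasted and 215, 242, 263 and 216 CPM in refed low isoleucine livers, which overlapped at 261 and 263 CPM (log2 fold change -0.41, SE 0.13, adjusted p = 0.0313 by edgeR). On the control diet Klkb1 was at 348, 377, 371 and 348 CPM in fasted and 287, 293, 315 and 212 CPM in refed livers without overlap, with a value of -0.39 (adjusted p = 0.0506 by edgeR, 0.0312 by DESeq2 and 0.0453 by limma-voom). That value was -0.28 when control refed library 4 was left out (adjusted p = 0.111 by edgeR).

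Serpind1 was at 500.1, 419.7, 367 and 434 CPM in fasted and 625, 559, 601 and 459.7 CPM in refed low isoleucine livers, and refed library 4 lay within the fasted range. Its log2 fold change was 0.38 (SE 0.129, adjusted p = 0.0434 by edgeR), and this call held under 14 of 26 alternatives. F5 encodes the cofactor of factor Xa and was at 604, 684, 517 and 473 CPM in fasted and 392, 403, 456 and 303 CPM in refed low isoleucine livers. The groups did not overlap (log2 fold change -0.55, SE 0.139, adjusted p = 0.00931 by edgeR).

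Pros1 encodes protein S, the cofactor of activated protein C, and was at 83.2, 84.3, 77.5 and 79.6 CPM in fasted and 37.5, 50.9, 62.7 and 45.8 CPM in refed low isoleucine livers. It fell without overlap (log2 fold change -0.72, SE 0.209, adjusted p = 0.0208 by edgeR). On the control diet the Pros1 levels were 65.3, 78.7, 99.97 and 84.7 CPM in fasted and 37.9, 48.6, 58.9 and 87.3 CPM in refed livers, where the highest refed value was that of library 4.

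F9, the factor IX gene, was at 282, 224, 237 and 242 CPM in fasted and 158, 174, 226 and 149.6 CPM in refed low isoleucine livers, which overlapped at 224 and 226 CPM (log2 fold change -0.48, SE 0.143, adjusted p = 0.024 by edgeR). Fga was at 2622, 3177, 2617 and 2045 CPM in refed low isoleucine livers, all below the fasted livers given above (log2 fold change -0.40, SE 0.127, adjusted p = 0.032 by edgeR). The median over the 3 fibrinogen chains was -0.26 on the control diet and -0.30 on low isoleucine, and Fgb and Fgg did not pass. With counts scaled by library size alone, the median over all genes moved from 0.01 to 0.14 on the control diet and from 0.02 to 0.13 on low isoleucine, and the fibrinogen median stayed negative at -0.15 and -0.18. That scaling turned the calls over all genes from 1433 higher and 1761 lower into 2094 higher and 1153 lower on low isoleucine, and from 1329 and 1223 into 1896 and 747 on the control diet. Upper-quartile scaling gave 1695 higher and 1547 lower on low isoleucine.

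**Figure D4:**
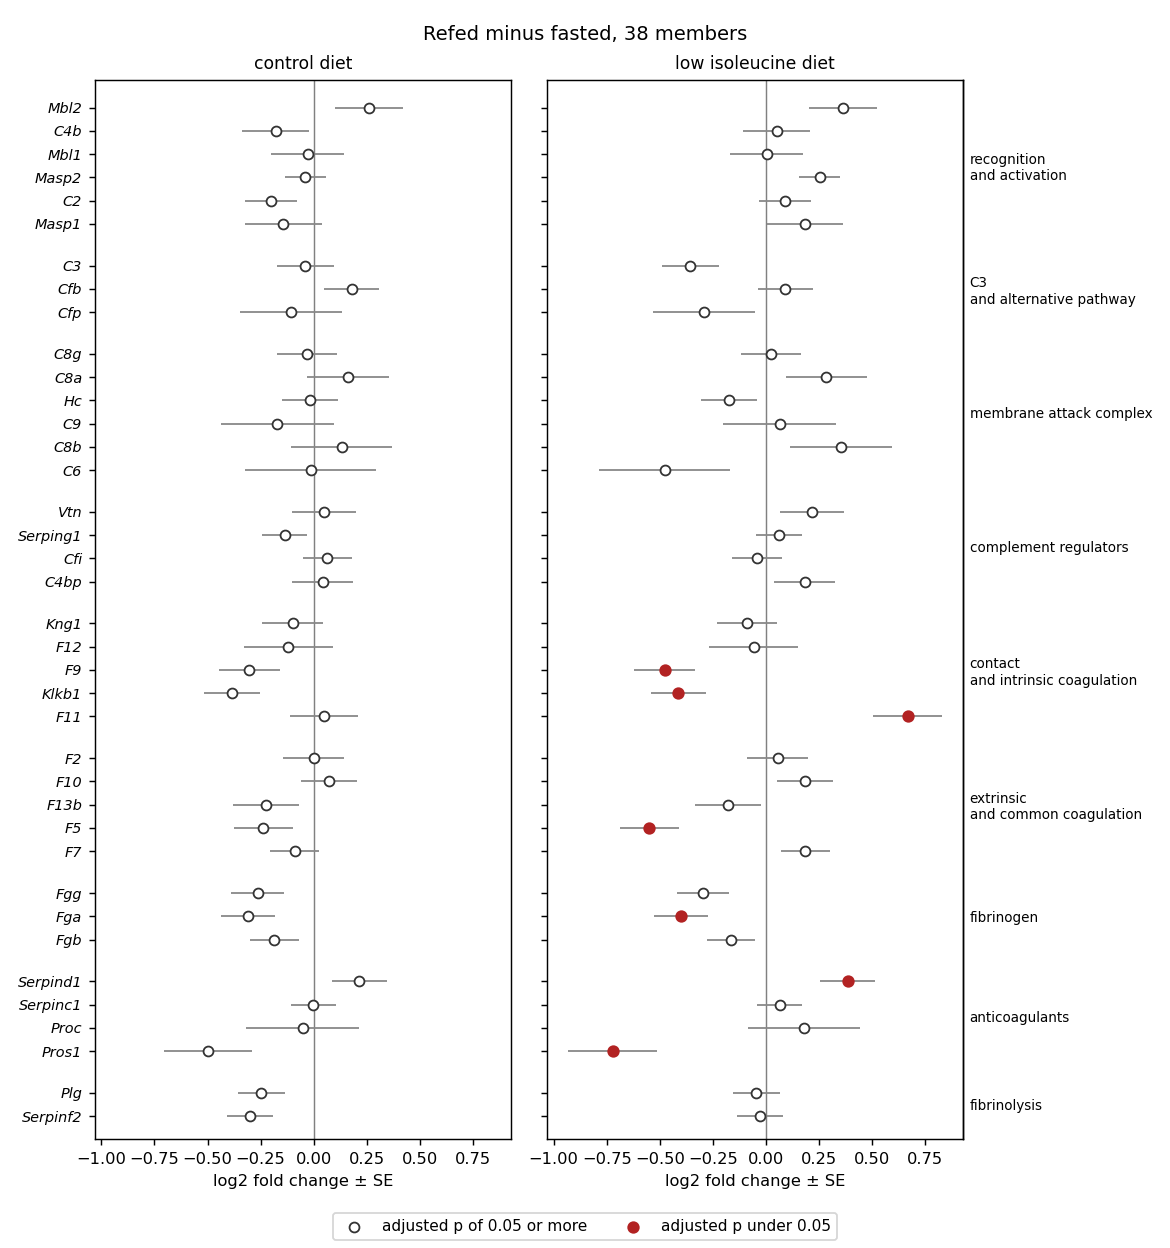
Log2 fold change of each of the 38 genes, refed minus fasted, with its standard error, for each diet, grouped by arm. No gene passed on the control diet, and 7 (filled) passed on low isoleucine, F11 and Serpind1 to the right and F9, Klkb1, F5, Fga and Pros1 to the left.

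**Figure D5:**
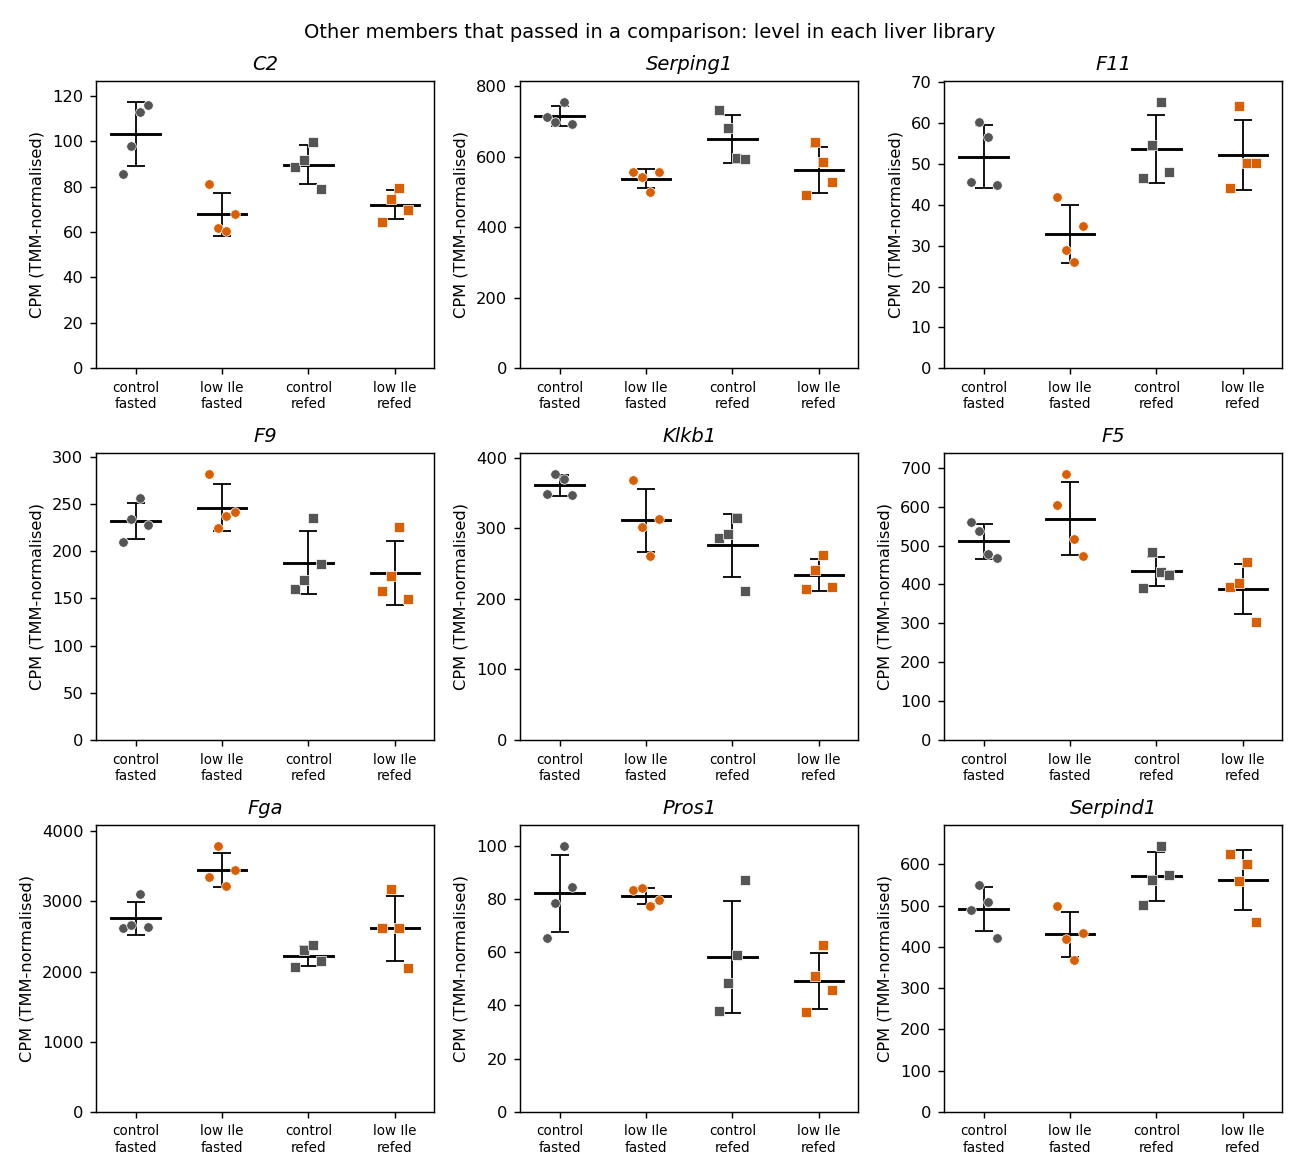
TMM-normalised CPM of the 9 called genes outside the membrane attack complex in each of the 16 livers, with group mean and SD. C2 and Serping1 are lower in low isoleucine than in control fasted livers without overlap, and F5 and Pros1 are lower in refed than in fasted low isoleucine livers without overlap.

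Of 53 further genes of the same pathways, 49 were tested. By edgeR none passed by diet in fasted or in refed mice alone. Of all 14920 genes, 1613 and 1456 had an unadjusted p under 0.05 by edgeR, and of the 49, 8 and 5 did, all of them lower. DESeq2 called 1 in each, C4a, and limma-voom 0. In the averaged comparison 2 of the 49 passed, both lower on low isoleucine, where 1.51% of all genes passed. C4a was at 8.74, 13.2, 7.25 and 13.3 CPM in control fasted and 5.36, 5.77, 3.82 and 4.22 CPM in low isoleucine fasted livers, and at 20.2, 12.7, 21.5 and 7.89 CPM in control refed and 7.05, 4.62, 4.67 and 7.23 CPM in low isoleucine refed livers. The diets did not overlap in either feeding state (averaged log2 fold change -1.27, SE 0.207, adjusted p = 0.00561 by edgeR). Without control refed library 4, C4a passed averaged (-1.40, adjusted p = 0.000736), in fasted mice (-1.16, 0.0222) and in refed mice (-1.64, 0.00971). C4a is a near-identical copy of C4b, which averaged 1002 CPM, so the split of reads between them is uncertain. F2r, which encodes a thrombin receptor, was at 23.0 ± 5.29 CPM in control fasted, 15.4 ± 2.21 in low isoleucine fasted, 18.3 ± 2.53 in control refed livers and, lowest, 11.8 ± 2.29 in low isoleucine refed livers (SD, n = 4), with an averaged log2 fold change of -0.60 (SE 0.125, adjusted p = 0.021 by edgeR, 0.0145 without control refed library 4). The C1q chain genes C1qa, C1qb and C1qc, which macrophages express, had averaged values of -0.38, -0.41 and -0.31 and did not pass.

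By refeeding 5 of the 49 rose and 1 fell on the control diet, where 17.1% of all genes passed. On low isoleucine 5 rose and 2 fell, where 21.4% of all genes passed. Ggcx, the carboxylase that vitamin K-dependent clotting factors need, rose on both diets (log2 fold change 0.54 on control and 0.42 on low isoleucine, adjusted p = 0.00344 and 0.0126 by edgeR). Serpina10, which encodes the protein Z-dependent inhibitor, rose by 0.59 and 0.53 (adjusted p = 0.00687 and 0.0107 by edgeR), Habp2 by 0.40 and 0.39, and Mcfd2 by 0.40 and 0.48. Mcfd2 and Lman1 encode the cargo receptor that carries factors V and VIII out of the endoplasmic reticulum, and Lman1 rose by 0.52 on the control diet (adjusted p = 0.008 by edgeR) and was at 0.33 on low isoleucine (adjusted p = 0.0666 by edgeR, 0.0419 by DESeq2). Cpn2, a carboxypeptidase N subunit, fell on the control diet (-0.48, adjusted p = 0.0296 by edgeR), a call lost without control refed library 4 (-0.37, adjusted p = 0.0639), while the other 5 passed without it. On low isoleucine Vwf, the von Willebrand factor gene of endothelial cells, fell by 0.65 and the tissue factor gene F3 by 0.47 on the log2 scale, and Cfhr3, at about 3 CPM and annotated as a pseudogene of a multigene family, rose by 0.56.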

How the data were processed

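Liver RNA of 16 mice was sequenced as stranded, poly-A enriched libraries and the lanes were merged per sample before expression estimation, per the labels' protocols. Per the file headers, the authors deposited RSEM expected counts, 10.2% of which are not whole. The submitters' processing notes name R 3.5.3, edgeR and limma without their roles. Aligner, build and annotation were not given in the sources used here. For each diet comparison the authors also deposited 1 table that holds, per the file headers, p-values before and after adjustment, an F score, log2 CPM and log2 fold changes.

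Expected counts were rounded and fitted with edgeR 4.0.16 under R 4.3.3 (filterByExpr with minimum count 10 and total 15, TMM, robust quasi-likelihood fit, 1 mean per group, all 16 libraries), with Benjamini-Hochberg adjustment over 14920 genes and a threshold of 0.05. Standard errors are the size of the log2 fold change over the root of F. Alternatives were DESeq2 1.42.0 (size factors and Wald test), limma-voom (limma 3.58.1), other scalings and filters, a non-robust fit, a fit of the compared groups only, a replicate block and leaving out each library. CPM are TMM-normalised. The method was tested on simulated data. Genes were looked up by identifier, with lengths from GENCODE M21.

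The 38 genes, the gene lists and the tests were chosen with earlier results of these data known. Per library values are given for each gene called by diet and for up to 8 called by refeeding. The gene with the highest level per kilobase in each arm is also named. Genes outside the 38 are named where called by diet or among the 6 largest refeeding changes that passed in a comparison. Masp2, Cfb, Hc, C7 and the C1q genes were added after their values were seen.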

Additional observations from a re-analysis of the deposited data

Results flagged for a closer look

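Within a group of 4 livers, a library was singled out when its gap to the nearest other exceeded Dixon's 95% critical value, and chance does this in about 1 of 20 groups. Of 52 groups examined (13 genes in 4 groups), 2 did so. C8b was at 530.4 CPM in control refed library 3, against 245 to 289 CPM in the other 3, and without that library the averaged diet call of C8b was lost (adjusted p = 0.0511 by edgeR). Fga was at 3099.9 CPM in control fasted library 3, against 2620.2 to 2667 CPM in the other 3.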

How the results depend on the processing

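In the averaged diet comparison C2, C6, C8a and C9 passed under all 25 alternatives, with log2 fold changes from -0.51 to -0.43, -1.81 to -1.47, -0.96 to -0.80 and -1.55 to -1.27. Of the 38 genes, 4 to 8 passed when a library was left out, and 11 (3 higher, 8 lower) by the DESeq2 Wald test. In fasted mice 9 passed by DESeq2 (1 higher, 8 lower) and 2 with a replicate block, and leaving out a library gave 0 to 5: 0 without control fasted library 3 or 4 or low isoleucine fasted library 2, 3 or 4, and 1 without control fasted library 2. Fits that left out a library called as few as 6 of all genes in fasted mice, against 115 with all 16 libraries. In refed mice 3 passed by DESeq2, 0 with no filter on low counts and 0 with only the compared groups. Leaving out a library gave 0 to 2: 0 without low isoleucine refed library 1, 2 or 4, and 2 when control refed library 4 or low isoleucine refed library 3 was dropped. For refeeding on the control diet 2 passed by DESeq2, 1 by limma-voom and 1 with the filter of at least 1 CPM in 4 libraries, and 0 to 2 when a library was left out (1 without low isoleucine fasted library 1 or 3 or control refed library 3, and 2 when control refed library 4 was dropped). On low isoleucine 2 to 8 passed when a library was left out: 4 without low isoleucine fasted library 2 or 4 or refed library 2, 2 without refed library 1 and 3 without refed library 4. F11 and F5 passed under all 26 alternatives. Scaling by library size alone moved the median log2 fold change by refeeding over the 38 genes to 0.033 on the control diet and 0.15 on low isoleucine, from -0.07 and 0.04. Why the counts of genes that passed moved between these fits was not tested.

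Over all genes the DESeq2 Wald test called 371 in fasted mice, 179 in refed mice and 603 averaged, against 115, 26 and 226. With only the compared groups 193 and 3 passed in fasted and refed mice. Leaving out a library gave 6 to 222, 3 to 89 and 115 to 473.

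The labels give the libraries of each group marks that recur across groups. Of 24 same-mark pairs 8 had a correlation of deviations over 0.1 (range -0.32 to 0.32), and 6 of 16 libraries matched their own mark best, so the marks were not taken to pair the mice. With the replicate block, 2 of the 38 passed in fasted mice (C8a and C9), 1 in refed mice, 5 averaged, 0 and 6 by refeeding on the control and low isoleucine diets and 0 for the interaction.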
